A study of Mus musculus with 37 samples.

Results

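The 18 glands of calorie-restricted mice were compared with the 19 glands of mice fed freely, which together are all 37 samples of the series. The sample labels chose the members. Restricted samples were those labelled CR (9 mice) or CR+EX (9 mice), and unrestricted samples those labelled AL (10 mice) or AL+EX (9 mice). AL mice ate ad libitum, CR mice got 30% fewer calories but the full amount of the other nutrients, and EX marks a running wheel in the cage. The wheel entered as a second factor, so each diet was measured with and without it. All mice were C57BL/6 females, 9 weeks old at the start, and the regimens ran for 6 weeks. None carried an engineered allele, per the labels. Left and right thoracic mammary glands of a mouse, about 60 mg each, were pooled, and each mouse had 1 Affymetrix oligonucleotide array. The hour at which glands were taken, the time since the last meal and the distance run are not known here. The question that the design sets is what restriction does to gene expression in the gland, and whether a wheel changes that.

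A mouse mammary gland is a tree of epithelial ducts set in a pad of fat, so that RNA of the whole gland comes from fat cells, epithelium, stroma, vessels and immune cells together. Fat cells build fatty acids from acetyl-CoA with NADPH, store them as triglyceride and release them when food is short. Most cells also run a circadian clock. In it Arntl and Clock switch on genes through a DNA sequence called the E-box, and Nr1d1 and Nr1d2 hold down genes through a sequence called the RORE. Dbp and Tef activate genes through the D-box, and Nfil3 represses them there.

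Clock genes were among the largest differences between the diets, and 3 of their promoters are printed because they hold these 3 sequences and their genes moved in different directions. Each line gives the 250 bases before a gene's start, from RefSeq with build GRCm38.p6, 5′ to 3′ on the gene's strand, with the matches in capitals. Nfil3 (chr13:52981040-52981289, minus strand), which was higher under restriction, holds the RORE letters TAGGTCA on the opposite strand. Per3 (chr4:151044666-151044915, minus strand), a clock repressor gene that was lower, holds the D-box TTANGTAA at 2 places. Tef (chr15:81802423-81802672, plus strand, the first of its listed starts), also lower, holds the E-box CACGTG.
Nfil3: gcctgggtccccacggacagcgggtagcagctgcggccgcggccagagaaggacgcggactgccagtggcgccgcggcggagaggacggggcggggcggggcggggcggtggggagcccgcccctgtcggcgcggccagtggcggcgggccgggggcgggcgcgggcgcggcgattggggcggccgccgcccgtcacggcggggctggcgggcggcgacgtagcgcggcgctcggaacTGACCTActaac
Per3: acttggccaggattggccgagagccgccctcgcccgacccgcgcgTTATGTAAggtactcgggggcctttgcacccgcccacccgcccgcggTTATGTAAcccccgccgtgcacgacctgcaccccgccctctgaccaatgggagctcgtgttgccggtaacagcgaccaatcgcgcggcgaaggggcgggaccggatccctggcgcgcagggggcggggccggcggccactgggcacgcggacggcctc
Tef: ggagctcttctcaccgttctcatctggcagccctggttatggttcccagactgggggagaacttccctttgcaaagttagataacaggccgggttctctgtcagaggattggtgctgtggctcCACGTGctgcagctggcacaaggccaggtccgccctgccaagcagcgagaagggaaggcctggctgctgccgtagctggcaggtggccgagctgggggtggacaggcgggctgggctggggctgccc
Both strands were searched in 32851 such windows. The E-box letters were in 6.02% of them, the D-box letters in 2.06% and the RORE letters in 2.23%. In the list of clock genes under E-box control, 4 of the 11 genes with a window held an E-box, and none a RORE. In the list under RORE control 1 of 6 held a RORE, Nfil3, and 1 an E-box, Cry1. The windows of Nr1d1, Dbp and Arntl held none of the 3. A match is a description of the letters and no measure of binding.

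Values are the authors' signal intensities, on 1 scale for all arrays, and differences are on the log2(signal + 16) scale with the standard error after ±. A gene was called when limma's p, adjusted over all 9294 genes tested, was under 0.05. B lymphocyte genes were high on 15 arrays, called B-cell-rich here (a mean over the 11 genes on the array of 7.97 to 10.1 on the log2 scale, against 6.49 to 7.26 on the others), 7 restricted and 8 unrestricted. They include all 8 arrays of run 4, with 3, 1 and 3 of runs 1, 2 and 3, so each result without them is also one without run 4. A Gapdh 3′ to 5′ ratio above 2, which rises with RNA degradation, was found on 5 arrays, 3 of AL and 2 of CR+EX mice. No CR or AL+EX array had it, so within each wheel state these arrays were all of the same diet. Animal numbers fell into 4 runs of 8, 11, 10 and 8 arrays that each held all 4 groups, and the labels do not call them batches. Within a run the numbers rose from AL to CR+EX, so place in the run and diet cannot be told apart. Adipoq, the fat cell hormone gene adiponectin, had a signal of 12686 to 30960.3 (median 17005) in unrestricted and 12916 to 26746 (median 18399.8) in restricted glands. The mean log2 level of the luminal epithelium list was 7.89 to 10.54 in unrestricted and 7.93 to 9.88 in restricted glands. In such bulk samples fewer cells of a type and less RNA per cell cannot be told apart.

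Restriction changed 813 of 9294 genes (8.75%), with 389 higher (4.19%) and 424 lower (4.56%) in restricted glands. Most of the differences were small. The median size among called genes was 0.40 on the log2 scale, against 0.13 over all genes. Only 156 called genes differed by over 1.5-fold and 24 by over 2-fold, 13 of them higher and 11 lower. Genes called higher were brighter than those called lower: the median of their mean log2 levels was 10.2 against 8.99, and over all genes it was 8.77. At an unadjusted p under 0.05 there were 2224 genes (23.9%). No gene separated the diets on every array, since for 0 of 9294 genes did the 18 restricted and 19 unrestricted values fail to overlap. Median centring made the split 491 rises and 180 falls, and quantile normalization 425 and 313.

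The wheel gave no such set of genes. With the wheel against no wheel, limma called 0 genes and 266 (2.86%) had an unadjusted p under 0.05. The median size of the wheel difference was 0.071 against 0.13 for the diet, although both had a median standard error of 0.11. The smallest unadjusted p belonged to Wdr77, a partner of an arginine methyltransferase, at 0.58 ± 0.15 with the wheel (unadjusted p = 0.00045, limma adjusted p = 1.00). The interaction, which tests whether the restriction difference itself depends on the wheel, also had 0 calls by limma and 295 genes (3.17%) with an unadjusted p under 0.05. Its median standard error was 0.22, so that only large dependence could be seen. Its smallest p belonged to Sars, the seryl-tRNA synthetase gene. The Sars signal was 712 to 1319 (median 862) in AL and 1162 to 1541 (median 1187) in AL+EX glands. Under restriction it was 979 to 1473 (median 1177) in CR and 709.9 to 1231 (median 1021) in CR+EX glands. The ranges of the 4 groups overlapped. Its restriction difference was 0.36 without and -0.39 with the wheel, and the interaction had an adjusted p of 0.28.

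**Figure D1:**
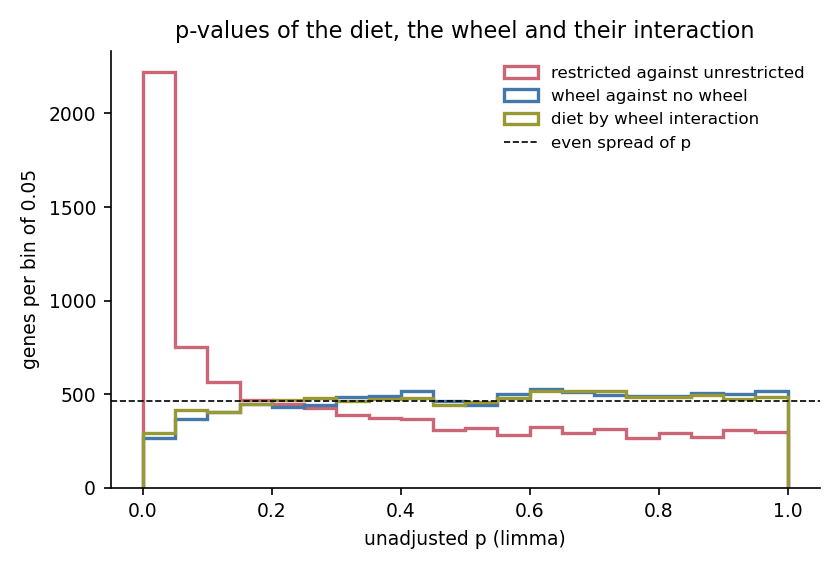
Number of genes per 0.05-wide bin of unadjusted limma p, for restricted against unrestricted glands, wheel against no wheel and their interaction, over 9294 genes. The dashed line is an even spread of p. The first bin holds 2224 genes for the diet, 266 for the wheel and 295 for the interaction.

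Genes called in mice without a wheel mostly differed in the same direction in mice with one, and the reverse. The CR against AL fit and the CR+EX against AL+EX fit use no array in common, so calls of one were read in the other. Alone, CR against AL called 63 genes (0.678%), 28 higher and 35 lower. Of these, 61 (96.8%) had the same direction in glands with a wheel, against 67.3% of all genes, and 41 (65.1%) had it with an unadjusted p under 0.05, against 12.6% of all genes. Alone, CR+EX against AL+EX called 88 genes (0.947%), 52 higher and 36 lower. Of these, 87 (98.9%) had the same direction without a wheel and 66 (75.0%) had it with an unadjusted p under 0.05, against 13.6% of all genes. Differences were smaller where they had not been chosen: the median size of 0.68 in the first set became 0.49 with the wheel, and that of 0.73 in the second became 0.45 without it. With the spread estimated over all 37 arrays instead, CR against AL called 41 genes (0.441%), and CR+EX against AL+EX 153 (1.65%), of which 79 were higher (0.85%) and 74 lower (0.796%). Without the 15 B-cell-rich arrays, the fits within 1 wheel state called 14 and 0 genes, with 1473 and 1184 at an unadjusted p under 0.05 by limma. Without the 5 arrays of high Gapdh ratio the first of these, which loses 3 AL arrays and no CR array, called 4.

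There were 18 genes called in both fits, and all of them had the same direction in both. The lipid genes among them were Elovl6, Me1, Acly, Pmvk and Lipg, higher under restriction. The clock genes were Nfil3, higher, and Nr1d1 and Dbp, lower. The others that rose were Gpx8, Pepd, Abca8a, Nrg4 and 2010003K11Rik, and the others that fell were Defb1, Ly6d, Zfand5, Prune1 and 2410002F23Rik. Of genes called in 1 fit, 3 went the other way in the second and are named after their values were seen. The mast cell protease gene Mcpt4 was at 1.63 without and -0.16 with the wheel, but its interaction had an adjusted p of 1.00 (unadjusted p = 0.0085). The other two were Prkab1, a subunit of AMP-activated kinase, and Synpo, an actin-binding protein gene, also with adjusted interaction p of 1.00.

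**Figure D2:**
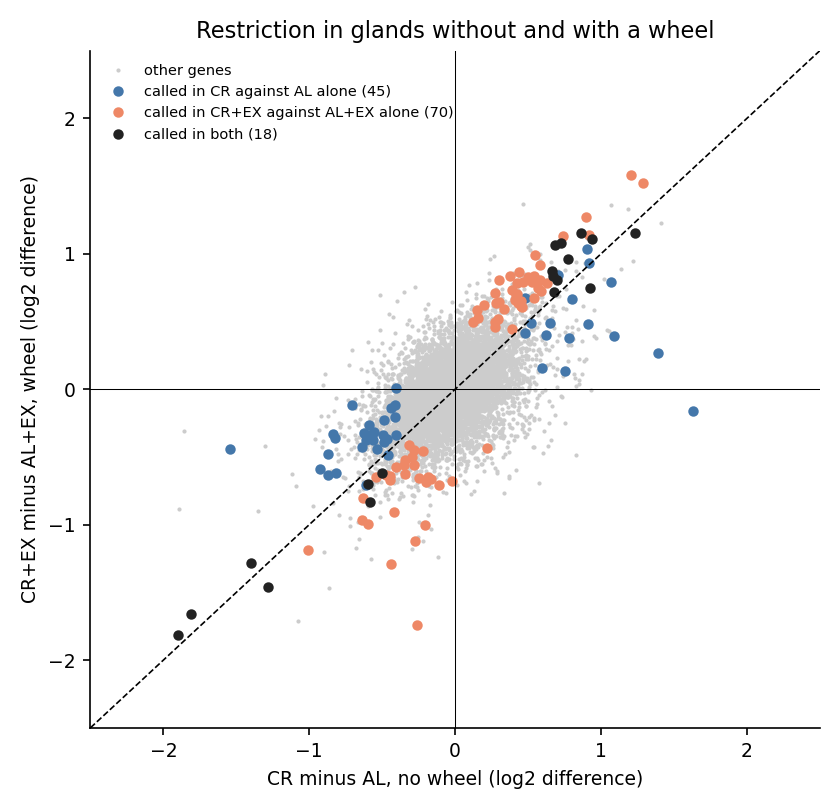
Restriction difference of each of 9294 genes (log2) without the wheel on the x axis and with the wheel on the y axis. Blue points were called in CR against AL alone, orange points in CR+EX against AL+EX alone and the 18 black points in both; the dashed diagonal marks equal differences. The black points lie near the diagonal in both directions, all at the lower left or the upper right.

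Over all 813 called genes the median size was 0.38 without and 0.42 with the wheel, and 479 of them (58.9%) were larger with it. Of the 813, 24 had an interaction p under 0.05 before adjustment, beside 295 (3.17%) of all 9294 genes. The smallest adjusted interaction p among the 813 was 1.00. A wide gap between wheel states was in Bdh1, the mitochondrial enzyme that interconverts the ketone bodies. Its signal was 85.2 to 296 (median 132.4) in AL and 102 to 182 (median 116) in CR glands, where the groups overlapped widely. With the wheel it was 185 to 423 (median 259) in AL+EX and 5.90 to 175 (median 129) in CR+EX glands, which did not overlap. The difference was -0.26 without and -1.74 with the wheel (interaction unadjusted p = 0.0027, adjusted p = 1.00).

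The size of the restriction difference varied among the runs of animal numbers. For called genes the median difference, taken in the called direction, was 0.28 in run 1, 0.29 in run 2, 0.68 in run 3 and 0.37 in run 4. Of the 813 called genes, 731 (89.9%) had the same direction in all 4 runs, against 1822 (21.5%) of the 8481 genes not called. The calls were made on these same runs, so that share is raised by the choice of genes and is no separate check. Run 3, with 10 arrays, carried many of the calls: without it 69 genes passed (40 higher, 29 lower), while 774, 585 and 866 passed without run 1, 2 and 4. A fit with run blocks called 1743 genes, among them all 813, and 358 passed with the block and without run 3.

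Each run was also read as arrays that had no part in the calls, a reading chosen after the data were seen. Of the 69 genes called without run 3, 66 (95.7%) had the same direction in run 3, against 66% of all genes. Of the genes called without run 1, 627 of 774 (81.0%) kept their direction in it, against 60.6% of all genes. The counts were 504 of 585 (86.2%) for run 2, against 65.0%, and 668 of 866 (77.1%) for run 4, against 62.1%.

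**Figure D3:**
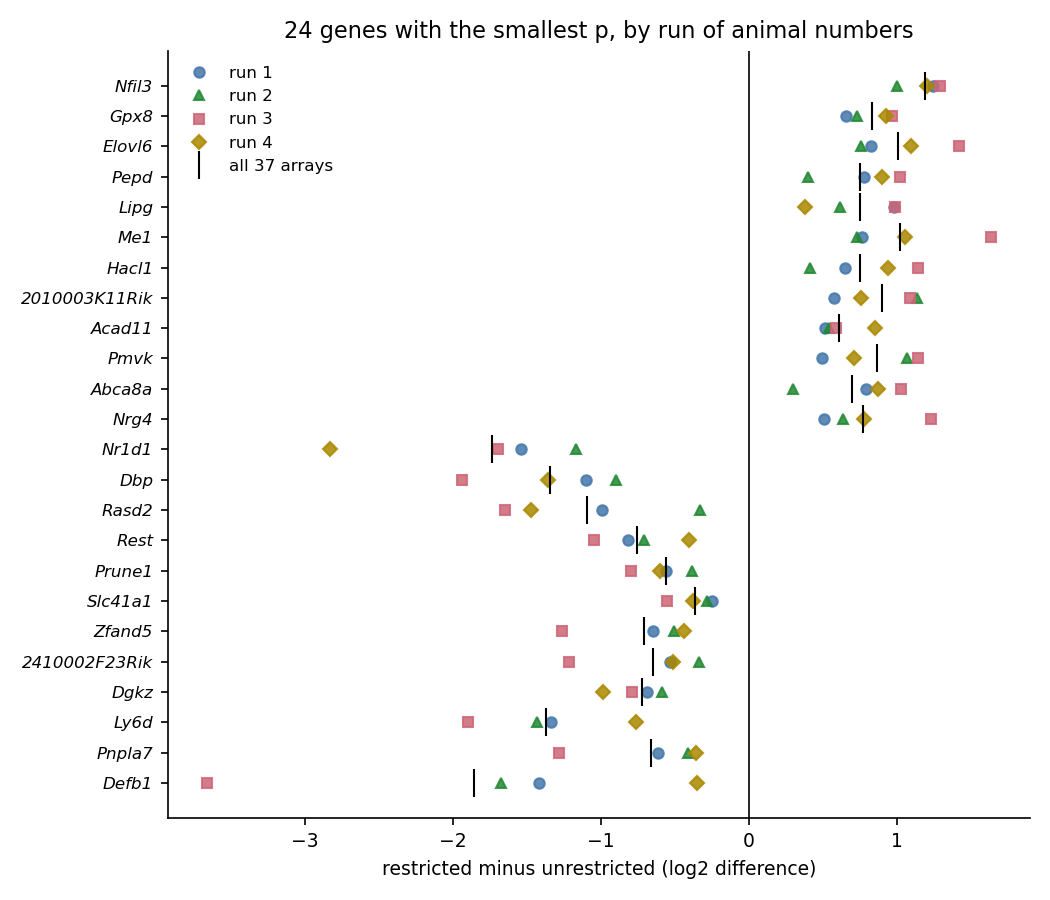
Restricted minus unrestricted difference (log2) within each run of animal numbers for the 12 higher and 12 lower genes with the smallest p, with a black bar for the fit to all 37 arrays. All 24 genes lie on the same side of 0 in the 4 runs, and for most the difference is largest in run 3. The genes were chosen by p over these same runs.

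Of 139 named genes called in the full comparison, 30 passed under each of 24 other settings that tested them and in all 37 fits with 1 array left out, 20 higher and 10 lower. Among those that rose were the clock gene Nfil3 and the lipid genes Elovl6, Me1, Acly, Aacs, Fabp5, Lipg, Abhd5, Pmvk and Nsdhl. The peroxisomal or mitochondrial genes Hacl1, Acad11 and Dlat also rose, with Gpx8, Pepd, Nrg4, Abca8a, Enpep, Tsc22d3 and 2010003K11Rik. The 10 that fell were the clock genes Nr1d1 and Dbp, with Rasd2, Prune1, Slc41a1, Zfand5, Dgkz, Ly6d, Pnpla7 and 2410002F23Rik. Without run 3, 33 of the 139 passed, and without the 15 B-cell-rich arrays 81 passed.

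The clock genes Nfil3, Nr1d1 and Dbp were among the genes with the smallest p. Nfil3 had a signal of 211 to 627 (median 381) in restricted and 85 to 284 (median 148) in unrestricted glands. Only 2 of 18 restricted arrays lay within the unrestricted range, and 3 of 19 unrestricted arrays within the restricted range. Nfil3 was 2.29-fold higher under restriction, a difference of 1.19 ± 0.14 (limma adjusted p = 1.2e-06), and by run it was 1.25, 1.00, 1.29 and 1.20. Nr1d1, which encodes the repressor REV-ERB alpha, ran the other way, at 50 to 735 (median 228) in restricted and 379.9 to 1234 (median 803) in unrestricted glands. All 18 restricted values were below the unrestricted median, and 4 reached into the unrestricted range. Nr1d1 fell by 1.74 ± 0.23, or 3.33-fold (adjusted p = 5.3e-06). Dbp, the activator that Nfil3 opposes, had a signal of 250.5 to 1024 (median 629.5) under restriction and 651 to 2566 (median 1391) without it. It fell by 1.34 ± 0.18 (2.53-fold, adjusted p = 5.3e-06), with 7 of 18 restricted arrays inside the unrestricted range. None of the 3 differed with the wheel by a test: Nr1d1 was at -1.81 without and -1.66 with it, Dbp at -1.40 and -1.28, and Nfil3 at 1.24 and 1.15, each with an adjusted interaction p of 1.00.

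**Figure D4:**
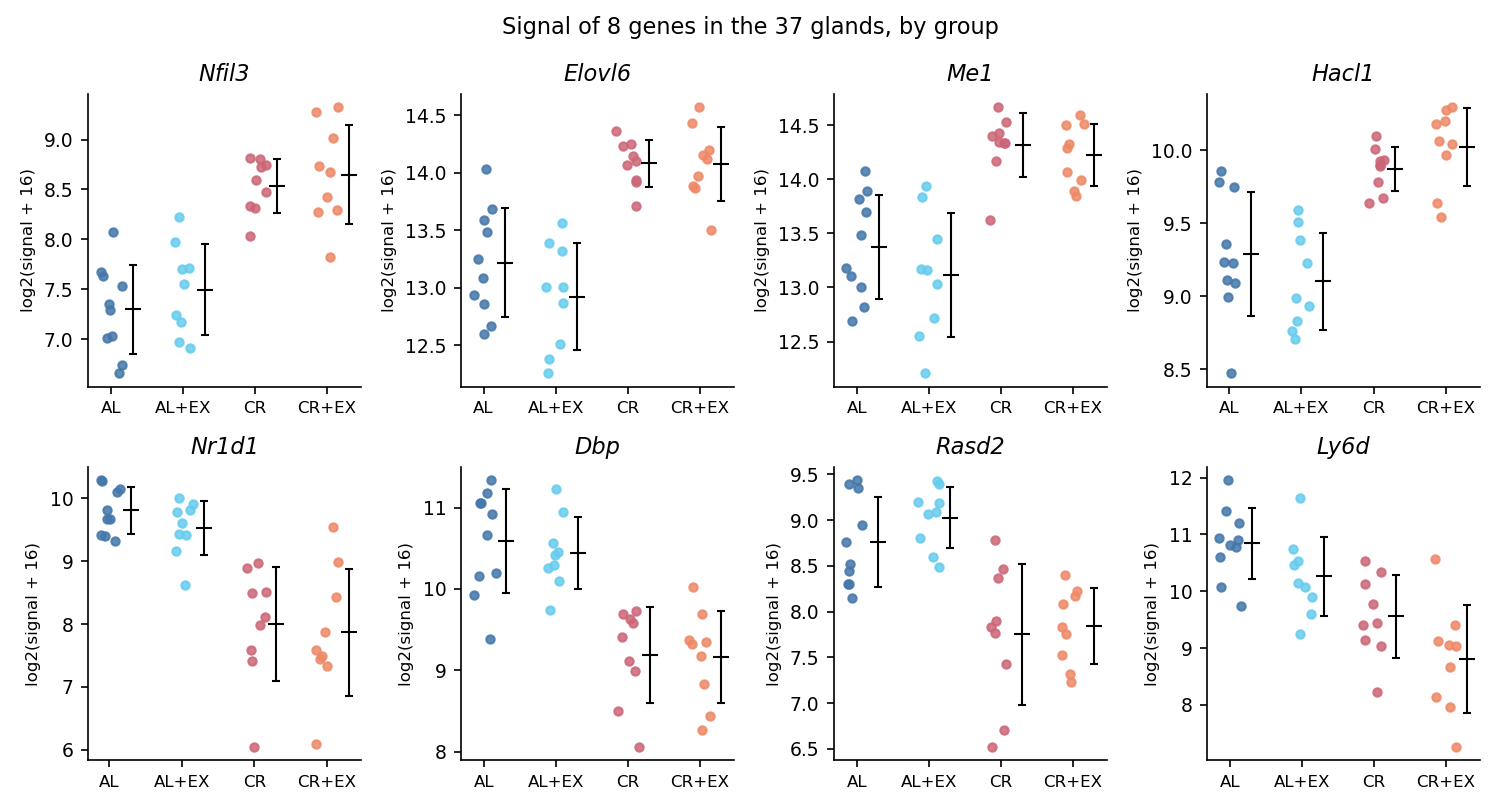
log2(signal + 16) of 8 genes in the 37 glands by group (AL 10, AL+EX 9, CR 9 and CR+EX 9 mice), 1 point per mouse, with the mean and SD as bars beside the points. Nfil3, Elovl6, Me1 and Hacl1 are higher and Nr1d1, Dbp, Rasd2 and Ly6d lower in both restricted groups, and in each panel some restricted and unrestricted mice overlap.

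Of 12 genes listed under E-box control, 7 fell and none rose, with a list median of -0.33 against -0.024 over all genes. Besides Nr1d1, Dbp, Tef and Per3 they were Nr1d2, the second REV-ERB gene (-0.42 ± 0.12), the repressor gene Bhlhe40 (-0.38 ± 0.11) and the ubiquitin protease gene Usp2 (-0.44 ± 0.12). Per3 was at -0.49 ± 0.15 (adjusted p = 0.030) and Tef at -0.29 ± 0.07 (adjusted p = 0.0062), where 17 of 18 restricted arrays lay within the unrestricted range. Per2, a core repressor gene, was at 0.11 ± 0.18 (adjusted p = 0.76) and did not pass. Of 5 genes listed under RORE control, 3 rose and the other two were below 0 (list median 0.42). The 3 were Nfil3, the activator Arntl (0.42 ± 0.13, adjusted p = 0.034) and the repressor Cry1 (0.53 ± 0.16, adjusted p = 0.036). The medians without and with the wheel were -0.35 and -0.30 for the E-box list and 0.46 and 0.36 for the RORE list. After median centring 2 of the E-box genes were called, and 3 without the 15 B-cell-rich arrays (4 without run 4 alone). Without those arrays, or without the 5 of high Gapdh ratio, 1 of the RORE genes was called.

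Of 18 genes for fatty acid synthesis, 8 rose and none fell, 17 were above 0 and the list median was 0.40 (0.33 without and 0.37 with the wheel). Elovl6, which lengthens palmitate to stearate, had a signal of 11587 to 24330.1 (median 17627) in restricted and 4876 to 16707 (median 8207) in unrestricted glands. All 18 restricted arrays were above the unrestricted median, and 7 lay within the unrestricted range. It was 2.01-fold higher (1.01 ± 0.12, adjusted p = 1.9e-06). Acly, which makes acetyl-CoA from citrate, was at 10701 to 18146 (median 14696) against 3581 to 15519.8 (median 7644), a 1.84-fold rise (0.88 ± 0.14, adjusted p = 0.00010); 1 of its 4 other probe sets went the other way. Aacs, which makes acetoacetyl-CoA for lipid synthesis from a ketone body, was at 1769 to 5654 (median 3431) against 607 to 2844 (median 1531), a difference of 2.12-fold, or 1.08 ± 0.17, with adjusted p = 0.00012. Acss2, which makes acetyl-CoA from acetate, rose by 1.01 ± 0.20 and the elongase gene Elovl5 by 0.43 ± 0.11. Acacb, an acetyl-CoA carboxylase, rose by 0.39 ± 0.11 and the desaturase gene Fads1 by 0.40 ± 0.12. Fasn, the fatty acid synthase gene, did not pass: it was 16850.0 to 40085 (median 27317) in restricted and 14368 to 41939 (median 19408) in unrestricted glands, a difference of 0.25 ± 0.13 with adjusted p = 0.23. Fasn did pass after quantile normalization (adjusted p = 0.0071) and with run blocks (0.046). Scd1, the main desaturase gene, was at -0.17 ± 0.17 (adjusted p = 0.61).

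Some NADPH and cholesterol genes rose and none of them fell. Me1, the malic enzyme that supplies NADPH, was at 12603 to 26043 (median 20672) under restriction and 4709 to 17245 (median 9206) without it, with 5 of 18 restricted arrays inside the unrestricted range (2.03-fold, 1.02 ± 0.14, adjusted p = 5.9e-06). With Taldo1 (0.41 ± 0.09) and Rpe (0.51 ± 0.11) of the pentose phosphate pathway it made up the 3 of 9 NADPH genes that rose, and none fell. Me1 is in both lists and is also among the 8 fatty acid synthesis genes that rose. Of 18 cholesterol synthesis genes 6 rose and none fell (median 0.27): Pmvk, Fdps, Sqle, Cyp51, Msmo1 and Nsdhl. Pmvk, a kinase of the mevalonate pathway, had a signal of 433 to 1136 (median 793) against 245 to 696 (median 372), a difference of 1.83-fold, or 0.87 ± 0.13, with adjusted p = 6.5e-05. Nsdhl, which acts in the removal of methyl groups from sterols, was at 1266 to 2201 (median 1732) against 807 to 1764 (median 1132), a difference of 1.46-fold with adjusted p = 0.00014. In both genes all 18 restricted arrays were above the unrestricted median while the ranges overlapped. Of 9 regulators of lipid synthesis 1 rose, 11.1% beside the 8.75% of all genes (4.19% for rises alone). It was Mlxipl, the carbohydrate response factor ChREBP (0.29 ± 0.09, limma adjusted p = 0.027).

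**Figure D5:**
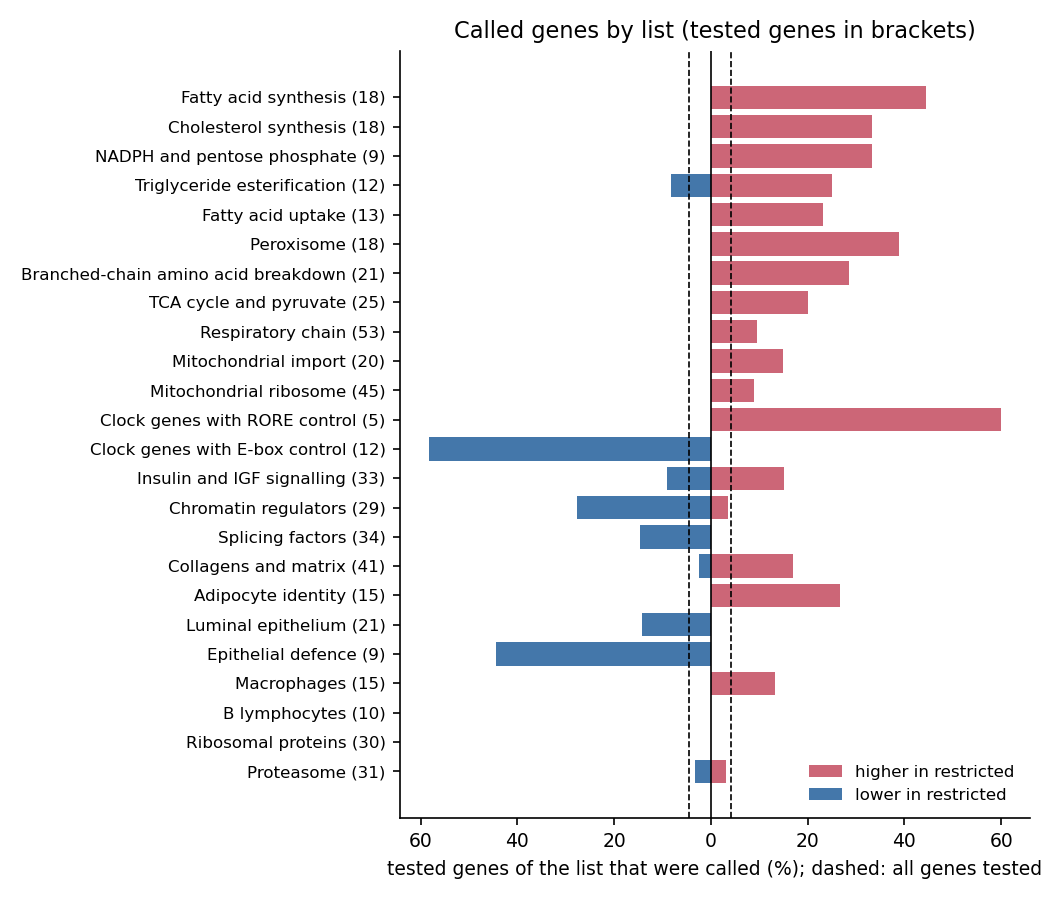
Share of each list's tested genes (number in brackets) called higher (red, to the right) or lower (blue, to the left) in restricted glands. The dashed lines mark the shares over all genes tested, 4.19% higher and 4.56% lower. Lists of fatty acid synthesis, cholesterol synthesis and peroxisome reach right past the line and have no lower call, and clock genes under E-box control reach left; ribosomal proteins and B lymphocytes have no call.

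Some genes for the uptake, storage and release of fat differed between the diets. Of 13 uptake genes 3 rose and none fell, 23.1% beside the 4.19% of all genes called higher. Fabp5, a fatty acid carrier, was at 4675 to 11911 (median 8585) in restricted and 1710.0 to 9605 (median 4434) in unrestricted glands, a difference of 2.04-fold, or 1.03 ± 0.18, with adjusted p = 0.00040. The transporter gene Slc27a1 rose by 0.73 ± 0.15 and Angptl4, an inhibitor of lipoprotein lipase, by 0.39 ± 0.12, though its 1 other probe set went the other way. Of 12 esterification genes 3 rose, Gpd1 (0.49 ± 0.15), Agpat3 (0.27 ± 0.08) and Dgat2, which forms triglyceride (0.41 ± 0.11), while Lpin2, a phosphatidate phosphatase gene, fell by 0.68 ± 0.16. These were 33.3% of the esterification list, beside the 8.75% of all genes. The Gpd1 call was lost in 17 of 37 fits with 1 array left out. Of 13 lipolysis and lipid droplet genes 2 rose: Abhd5, an activator of the triglyceride lipase (0.50 ± 0.10, adjusted p = 0.0022), and G0s2, its inhibitor (0.37 ± 0.11, adjusted p = 0.032). Plin5, a droplet coat gene, fell by 0.56 ± 0.15. Calls made up 23.1% of that list, beside the 8.75% of all genes. Lipg, the endothelial lipase gene, was outside these counts and was at 281 to 609.9 (median 431) in restricted and 193 to 380.5 (median 249) in unrestricted glands, a difference of 1.68-fold, or 0.75 ± 0.10, with adjusted p = 5.3e-06; 1 of its 2 other probe sets went the other way.

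Hcar2, a receptor for the ketone body hydroxybutyrate that restrains lipolysis, had a signal of 209 to 826 (median 474) in restricted and 33.7 to 488 (median 173) in unrestricted glands. It was 2.63-fold higher (1.40 ± 0.26, adjusted p = 0.00067), with 9 of 18 restricted arrays inside the unrestricted range. Nrg4, a growth factor gene of fat cells, was at 1252 to 2397 (median 2024) against 618 to 1964 (median 1158), a difference of 1.70-fold, or 0.77 ± 0.12, with adjusted p = 8.0e-05. Lep, the leptin gene, ran from 15.3 to 917 (median 189.6) under restriction and from 77.2 to 1613 (median 456) without it. The ranges overlapped for 14 of 18 restricted arrays, and Lep fell by 1.39 ± 0.38 (adjusted p = 0.018). By run it was at -3.44, -0.73, -0.64 and -1.04, and without run 1 at -0.82 (adjusted p = 0.16). Without the arrays of high Gapdh ratio, 4 of them in run 1, it was at -0.95 (adjusted p = 0.14). It also missed the threshold without the 15 B-cell-rich arrays (0.056) and without run 3 (0.085). Of 15 fat cell identity genes 4 rose and none fell (median 0.18): Adig (0.66 ± 0.12), Retn (0.64 ± 0.19), Rbp4 (0.49 ± 0.16) and Cebpb (0.37 ± 0.11). Adipoq was at 0.14 ± 0.11 (adjusted p = 0.46) and did not pass. After quantile normalization 1 of the 15 was called. Whether the level of fat cell genes has a part in the lipid differences was not tested.

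Of 18 peroxisome genes 7 rose and none fell, with a median of 0.26 and medians by run of -0.02, 0.20, 0.38 and 0.33. Hacl1, a lyase that shortens branched and hydroxylated fatty acids, had the smallest p of them. It had a signal of 729 to 1242 (median 973) in restricted and 339 to 910.4 (median 583) in unrestricted glands, with 5 of 18 and 4 of 19 arrays inside the other diet's range. The rise was 1.68-fold (0.75 ± 0.10, adjusted p = 7.8e-06). Ehhadh, an enzyme of peroxisomal beta-oxidation, rose by 0.75 ± 0.18 (adjusted p = 0.0066). The peroxisome assembly genes Pex3 (0.28 ± 0.07), Pex13 (0.22 ± 0.07), Pex16 (0.39 ± 0.12) and Pex19 (0.32 ± 0.08) and the fatty acid importer Abcd3 (0.31 ± 0.10) rose less. Without the 15 B-cell-rich arrays 1 of the 18 was called and the median was 0.21, and without run 4 alone 3 were called.

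The calls in mitochondrial lists were all rises. Of 25 genes of the TCA cycle and pyruvate entry 5 rose (median 0.13), 20.0% beside the 4.19% of all genes called higher. Dlat, a subunit of pyruvate dehydrogenase, was at 2810.2 to 6399 (median 4241) in restricted and 1746 to 4122 (median 2801) in unrestricted glands, a difference of 0.58 ± 0.11 with adjusted p = 0.00052. The others were Pdhb of the same complex (0.34 ± 0.08), pyruvate carboxylase Pcx (0.56 ± 0.13), the pyruvate carrier Mpc1 (0.38 ± 0.08) and Sdhd of succinate dehydrogenase (0.31 ± 0.10). Of 53 respiratory chain genes 5 rose, with 46 above 0 and a median of 0.10: Ndufab1, Ndufs7, Cycs, Atp5h and Atp5o, each at 0.31 or less. These rises were 9.43% of the list, and those of the mitochondrial ribosome 8.89%. Over all genes 4.19% were called higher, and 8.75% in either direction. With the mean of all probe sets 1 was called and Ndufab1 was at -0.023, and without the 15 B-cell-rich arrays or those of high Gapdh ratio 3 were. Of 45 mitochondrial ribosome genes 4 rose, led by Mrps22 (0.34 ± 0.07, adjusted p = 0.0030), and of 20 import genes 3 rose, led by Timm50 (0.38 ± 0.08, adjusted p = 0.0024). None of 30 cytosolic ribosomal protein genes was called by limma, and 3 had an unadjusted p under 0.05. After quantile normalization and with the run as a block, 5 were called lower.

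Breakdown of branched-chain amino acids gave 6 of 21 genes higher and none lower (median 0.21). They were the aminotransferase Bcat2 (0.53 ± 0.16), Ivd (0.34 ± 0.09), Mccc1 (0.27 ± 0.06), Auh (0.28 ± 0.07), Hibch (0.29 ± 0.09) and Pccb (0.27 ± 0.08), enzymes of later steps. The 3 other probe sets of Auh went the other way. Without the 15 B-cell-rich arrays none of the 21 was called by limma, 9 had an unadjusted p under 0.05 and the median was 0.19, while without run 4 alone 4 were called. Among genes of the amino acid stress response 3 of 27 rose, while the list median was -0.11. The share was 11.1%, beside the 8.75% of all genes (4.19% for rises alone). The genes that rose were Asns, Psat1 and Psph, which make asparagine and serine. The Psat1 call was lost in 19 of 37 fits with 1 array left out. Of 21 fatty acid oxidation genes 3 rose and none fell, 14.3% beside the 8.75% of all genes (4.19% for rises alone). The 3 were Ehhadh, Ucp3 (0.34 ± 0.09) and Echs1 (0.43 ± 0.14). The Echs1 call was lost in 26 of the 37 fits with 1 array left out, and without run 3 it was at 0.18 (adjusted p = 0.66). Acad11, an acyl-CoA dehydrogenase gene outside that list, was at 3153 to 5213 (median 4475) in restricted and 2113 to 4662 (median 2866) in unrestricted glands, a difference of 1.52-fold, or 0.61 ± 0.09, with adjusted p = 1.6e-05.

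Genes of insulin and IGF signalling moved in both directions, 5 of 33 higher and 3 lower. That was 24.2% called, beside the 8.75% of all genes (4.19% higher and 4.56% lower). Igfals, which encodes a carrier of circulating IGF1, was 2.49-fold higher, at 221 to 699 (median 512) in restricted and 20 to 595 (median 192) in unrestricted glands, a difference of 1.32 ± 0.27 with adjusted p = 0.0020. All 18 restricted arrays exceeded the unrestricted median, and 12 lay within the unrestricted range. Igf1 itself rose by 0.51 ± 0.14, the binding protein gene Igfbp2 by 0.51 ± 0.17, the docking protein gene Irs1 by 0.53 ± 0.12 and Pik3r1, a regulatory subunit of PI3 kinase, by 0.41 ± 0.11. The catalytic subunit gene Pik3ca fell by 0.24 ± 0.07, Gsk3b, a kinase that insulin inhibits, by 0.56 ± 0.14, and Tsc1, a brake on mTOR, by 0.38 ± 0.11. Median centring left 7 higher and 1 lower, and without the 15 B-cell-rich arrays there were 2 and 1. Of 15 glucocorticoid response genes 3 rose (20.0%, beside 4.19% of all genes) and none fell, while the list median was -0.06 and 8 were below 0. The target gene Tsc22d3 rose 1.51-fold, with a signal of 3219 to 5785 (median 4669) against 838 to 4234 (median 3198), adjusted p = 0.0030, and the receptor gene Nr3c1 rose by 0.26 ± 0.08. The third was Angptl4.

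The chromatin and splicing lists held more falls than rises. Of 29 chromatin regulators 8 fell and 1 rose (median -0.15, with medians by run of -0.19, -0.11, -0.17 and -0.17). That was 31.0% called, beside the 8.75% of all genes (4.56% for falls alone). Rest, a repressor of neuronal genes, had a signal of 113 to 404 (median 174) in restricted and 173 to 475 (median 336) in unrestricted glands and fell by 0.76 ± 0.12 (adjusted p = 6.5e-05). The histone demethylase genes Kdm5a (-1.16 ± 0.29), Kdm5b (-0.49 ± 0.11) and Kdm3a (-0.36 ± 0.09) fell, as did the methyltransferase Kmt2c (-0.46 ± 0.11), the acetyltransferase Crebbp (-0.51 ± 0.11) and the remodeller Chd4 (-0.45 ± 0.14). Linker histones split: H1f2 fell by 0.70 ± 0.15 and H1f10 rose by 1.26 ± 0.25 (adjusted p = 0.0025 and 0.0017). Of 34 genes in the splicing list 5 fell and none rose, 14.7% beside the 4.56% of all genes called lower. They were Sf3b1 (-0.34 ± 0.09), Rbm5 (-0.24 ± 0.07), Rbm25 (-0.62 ± 0.14), Luc7l2 (-0.42 ± 0.12) and Malat1 (-1.39 ± 0.38). Malat1 is a noncoding nuclear RNA and no splicing protein. After median centring 8 chromatin regulators and 2 genes of the splicing list were called lower, beside 180 of all 9294 genes.

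One of the genes that fell in every setting was Rasd2, a small Ras-like GTPase gene. Its signal was 76 to 426 (median 212) in restricted and 269 to 676 (median 476) in unrestricted glands, 2.14-fold lower under restriction (-1.10 ± 0.17, adjusted p = 6.2e-05). All 18 restricted arrays were below the unrestricted median, and 6 lay within the unrestricted range. Pnpla7, a lysophospholipase gene, was at 288 to 556 (median 375) against 405 to 1184 (median 616), a difference of -0.66 ± 0.11 with adjusted p = 0.00031. Dgkz, a diacylglycerol kinase gene, was at 475 to 1592 (median 675) against 682 to 1856 (median 1231), a difference of -0.72 ± 0.12 with adjusted p = 0.00024. Both ranges overlapped, for 7 and 9 of 18 restricted arrays. The magnesium transporter gene Slc41a1 had a narrow spread, 490.0 to 698 (median 574) against 575 to 926 (median 740.2), and a difference of -0.36 ± 0.06 was enough to pass (adjusted p = 8.4e-05).

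Of the genes that rose, Gpx8, a glutathione peroxidase gene of the endoplasmic reticulum, had a signal of 1356 to 2654 (median 1964) in restricted and 619 to 1785 (median 1077) in unrestricted glands, a difference of 1.78-fold, or 0.84 ± 0.10, with adjusted p = 1.9e-06. Pepd, which cleaves dipeptides that end in proline, was at 2635 to 4962 (median 3878) against 1364 to 3990.0 (median 2183), a difference of 1.68-fold with adjusted p = 4.0e-06. Enpep, an aminopeptidase gene that degrades angiotensin II, was at 981 to 4947 (median 3213) against 296 to 3123 (median 1032), a difference of 2.65-fold, or 1.41 ± 0.24, with adjusted p = 0.00023. In Gpx8 and Pepd all 18 restricted arrays were above the unrestricted median, and in Enpep 17 were. Prostaglandin and leukotriene enzymes split, with Ptges (0.52 ± 0.14), Ptges2 (0.30 ± 0.09) and Ltc4s (0.88 ± 0.23) higher and Ptgds (-0.88 ± 0.19) and Hpgd (-0.38 ± 0.13) lower. These were 5 of 15 in all, 33.3% beside the 8.75% of all genes. The Hpgd call was lost in 15 of 23 settings and 23 of 37 fits with 1 array left out, and with the mean of all probe sets Hpgd was at -0.056 (adjusted p = 0.85). Without the 15 B-cell-rich arrays 1 of the 15 was called.

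Some epithelial genes were lower under restriction. Of 9 epithelial defence genes 4 fell and none rose, though the list median was -0.05. Ly6d, a surface antigen gene, was at 137.5 to 1509 (median 544) in restricted and 590.2 to 3948 (median 1541) in unrestricted glands, 2.59-fold lower (-1.37 ± 0.23, adjusted p = 0.00025). Defb1, a defensin gene, was at 57.9 to 691 (median 136.1) against 109.9 to 2490.2 (median 529.5), 3.63-fold lower (-1.86 ± 0.32, adjusted p = 0.00032). By run Defb1 was at -1.42, -1.67, -3.66 and -0.35, with the smallest difference in run 4. Ctse, an endosomal protease gene, fell by 1.13 ± 0.25 and the secreted inhibitor gene Wfdc2 by 0.67 ± 0.21. Beside them, 20 of 21 luminal epithelium genes were below 0, with a median of -0.39, and 3 fell (14.3%, against 4.56% of all genes). They were Cd24a (-0.71 ± 0.15), Spint1 (-0.64 ± 0.17) and Wfdc2, which is in both lists. The Wfdc2 call was lost in 21 of 37 fits with 1 array left out. Medians of the luminal list by run were -0.49, -0.40, -1.0 and 0.23. Without the 15 B-cell-rich arrays 13 luminal genes fell and the median was -0.70, without run 4 alone 15 fell and it was -0.65, and without the arrays of high Gapdh ratio 1 fell. Ly6d passed in each of 24 settings, and Defb1 in 23, failing without run 3. These settings include a fit with the luminal epithelium mean of each array as a covariate. That mean itself differed between the diets, with a median of 9.30 in restricted and 9.80 in unrestricted glands. The fit therefore cannot separate epithelial content from expression. The part of epithelial content in the fall of Ly6d and Defb1 was not tested.

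Of 41 collagen and matrix genes 7 rose and 1 fell, 19.5% against the 8.75% of all genes (median 0.19), with the collagen chaperone gene Serpinh1 at 0.91 ± 0.23, the calcification inhibitor gene Mgp at 0.74 ± 0.17 and P4ha2, a prolyl hydroxylase gene, at -0.43 ± 0.14. Without the 15 B-cell-rich arrays 1 was called, lower, without run 4 alone 3 were higher and 1 lower, and without those of high Gapdh ratio 3 were called, higher. The P4ha2 call was lost in 18 of 37 fits with 1 array left out and in 11 of 24 settings. Of 15 macrophage genes 2 rose, Cd163 (0.63 ± 0.19) and Gpnmb (0.84 ± 0.22). That was 13.3%, beside the 8.75% of all genes (4.19% for rises alone). Medians of the macrophage list by run were 0.30, -0.51, 0.73 and 0.12. The Cd163 call was lost in 8 of 24 settings and the Gpnmb call in 5 of 23. For B lymphocytes the list median was -0.41, with all 10 tested genes below 0, none called by limma and 0 at an unadjusted p under 0.05. The mean over these 10 genes ran from 6.66 to 9.97 in restricted and from 6.97 to 10.54 in unrestricted glands, so the ranges nearly coincided. With the B lymphocyte mean of each array as a covariate 1023 genes were called, and with the luminal epithelium mean 987. Endothelium had 0 of 14, basal epithelium 0 of 10, skeletal muscle 0 of 17 and proliferation 0 of 16 genes called by limma, with 1, 1, 2 and 1 at an unadjusted p under 0.05.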

How the data were processed

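Whole-gland RNA of 37 mice was measured on 1 Affymetrix array each. The values are signal intensities as deposited by the authors, on a linear scale, made with GCOS version 1 per the submitters' processing notes; no source used here gives the signal algorithm. Scaling had been done by the authors, since the mean after trimming 2% at each end was 500.2 on every array. Of 22690 probe sets, 20380 named 1 gene in the platform's table, 691 several and 1555 none, and 64 were controls. The brightest probe set of each of 12393 genes was used as log2(signal + 16), and the dimmest 25% (mean below 6.71, or a signal of 88.7) were dropped, so that 9294 were tested.

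A mean per group was fitted with limma 3.58.1 in R 4.3.3 over the 37 arrays, leaving 33 residual degrees of freedom, with trended empirical Bayes variances. The restriction difference is the mean of CR minus AL and CR+EX minus AL+EX. Tests were two-sided, adjusted by Benjamini and Hochberg over 9294 genes, and called at an adjusted p under 0.05. The fits within 1 wheel state used only its arrays. Simulated arrays returned 71.1% of genes shifted by 0.5 and 95.8% of genes shifted by 1 on the log2 scale, with a mean of 7.8 false calls. They had independent normal noise for each gene, no run differences and no variation shared between genes, and only a small part of the genes was shifted. That count of false calls therefore does not carry over to the genes called here. The number of arrays limits the precision, and each array is a separate mouse, per its animal number in the labels.

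Runs are blocks of 24 animal numbers. Each list was described by counts and medians beside those of all genes. The members and the 63 lists were chosen with earlier results of these data known. Named genes were the 12 rises and 12 falls with the smallest p, the 10 largest of each, up to 3 rises and 3 falls of each list by p, the 3 smallest p of the wheel and the 5 of the interaction, and Lep, Adipoq, Fasn, Scd1, Igf1, Arntl and Per2. Further called members of a list were named where the list is described, after their values were seen, as was Actc1. Promoter windows came from RefSeq tables. Alternatives were another pseudocount, filter, scaling or probe set rule, array weights, the run as a block, covariates, and arrays or runs left out.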

Additional observations from a re-analysis of the deposited data

Results flagged for a closer look

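Of 604 group and gene pairs with 9 or 10 arrays, 40 (6.62%) held an array far from the others of its group, and chance gives about 1 in 20. CR replicate 1 was lowest of the CR glands for Me1 (12603, others 18396 to 26043), G0s2 (1675), Mccc1 (2077), Adig (2528) and Ptges (411), and highest for Dgkz (1592, others 534 to 769) and Usp18 (601), an interferon-induced protease gene. CR replicate 8 was lowest for Enpep (981, others 2925 to 4472), Selenos (989), Psat1 (320.2) and Wdr77 (184) and highest for Agpat3 (2783) and Gpd1 (22914). CR replicate 2 was lowest for Olfm1 (15.1), CR replicate 7 for Kdm5a (8.50, others 67.3 to 197) and Rbm25 (439), and CR replicate 9 for Pdk1 (733).

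Among unrestricted glands, AL replicate 8, whose Gapdh ratio was 2.37, was lowest for Aacs (607), Serpinh1 (194), Tsc22d3 (838, others 2661 to 3973), Ssr4 (616) and Prdx3 (2108). AL replicate 9 was lowest for the fat cell gene Retn (2627) and for Wfdc2 (623), AL replicate 2 highest for Selenos (2048) and AL replicate 4 for the keratinocyte gene Sprr1a (1396). AL+EX replicate 8 was lowest for the epithelial genes Spint1 (98.1) and Wfdc2 (505) and highest for Arntl (308, others 116 to 178). AL+EX replicate 6 was lowest for Prdx3 (3364) and AL+EX replicate 9 for Mlxipl (1454).

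Defb1 was high in 1 mouse of each restricted group, CR replicate 9 (687, others 57.9 to 199) and CR+EX replicate 5 (691, others 80.7 to 229). CR+EX replicate 5 was also highest for Gclc (1315, others 415 to 540.1) and lowest for Acad11 (3153) and Srrm3 (154). In CR+EX replicate 3 the red cell gene Alas2 was highest (556) and the transporter gene Slc22a8 lowest (28.6). CR+EX replicate 8 was lowest for the import gene Timm8b (808) and highest for Keap1 (979.9). The cause of these values was not tested.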

How the results depend on the processing

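The restriction count stayed within 1.5 times of 813 with a pseudocount of 1 (809) or 64 (822), no filter (722), the lowest 50% left out (788), median centring (671), quantile normalization (738), the mean of all probe sets (826), array weights (939) and no arrays of high Gapdh ratio (622). It was also within that range without run 1 (774), 2 (585) and 4 (866), and with each array left out in turn it ran from 611 (without AL+EX replicate 6) to 960 (without AL+EX replicate 5). It moved further to 497 without the 15 B-cell-rich arrays, 69 without run 3 and 1743 with the run as a block. With the block and without run 1, 2, 3 or 4 it was 1584, 1284, 358 or 1636, alternatives added after seeing the data, as were the list counts without run 4. In the fit without the wheel the count of 63 became 23 with no filter, 24 after median centring, 392 with the block, 113 with array weights, 14 without the 15 B-cell-rich arrays and 4 without those of high Gapdh ratio. In the fit with the wheel the count of 88 became 55 after median centring, 489 with the block and 0 by limma without the 15 B-cell-rich arrays, where 1184 genes had an unadjusted p under 0.05. Wheel and interaction had 0 calls by limma in every setting tried, beside 266 and 295 genes at an unadjusted p under 0.05 in the fit to all arrays. With the mean of all probe sets Ndufab1 turned to -0.023 and Scd1 to 0.12. The cause of these moves was not tested. No paired analysis was possible because the labels carry no replicate numbers that groups share. Signals of dim genes are limited by background, and detection calls were not used here.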

Other observations

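Of 12 inflammation and acute phase genes 3 fell and none rose: the haptoglobin gene Hp (-0.50 ± 0.14), the cytokine signalling inhibitor Socs3 (-0.53 ± 0.17) and Nfkbiz, a regulator of NF-kappa B targets (-0.34 ± 0.10). After median centring limma called none of the 12, and 4 had an unadjusted p under 0.05. The Socs3 call was lost in 22 of 37 fits with 1 array left out and in 11 of 23 settings. Of 19 immediate early genes 2 fell, Junb (-0.60 ± 0.17) and Ier3 (-0.45 ± 0.09). Their share was 10.5%, beside the 8.75% of all genes (4.56% for falls alone). Among 29 antioxidant genes 3 rose and 2 fell, 17.2% beside the 8.75% of all genes. Gclc, which starts glutathione synthesis, was at -0.79 ± 0.23 and Keap1, the inhibitor of Nrf2, at -0.25 ± 0.08. The Keap1 call was lost in 21 of 37 fits with 1 array left out and in 14 of 24 settings. Of 18 genes of glucose transport and glycolysis, Slc2a1 (-0.35 ± 0.10) and Hk1 (-0.32 ± 0.08), which take up and phosphorylate glucose, fell, and Pgam1 (0.38 ± 0.10) rose. These were 16.7% of the list, beside the 8.75% of all genes. Pdk1, which inhibits pyruvate dehydrogenase, rose by 0.53 ± 0.11. Klb, a co-receptor for FGF21, rose by 0.47 ± 0.11 and Nampt, which makes a precursor of NAD, by 0.30 ± 0.08.

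Actc1, a cardiac actin gene chosen after its values were seen, had the smallest p of all genes without run 3, at 1.58 ± 0.21. By run its difference was 1.95, 1.08, -0.63 and 1.97, so that run 3 alone went the other way.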
